A study of Mus musculus with 10 samples.

Results

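The heat shock proteins and the DNAJ proteins of the mouse were described as a group of 72 genes among the 20142 gene symbols listed in the series. They were chosen by symbol, as the genes named Hsp90, Hspa, Hspb, Hspd, Hspe or Hsph and the genes named Dnaja, Dnajb or Dnajc, and the symbol rule itself uses no measured value. The group holds 3 HSP90 genes, 11 HSP70 genes, 3 HSP110 genes, the 2 genes of the mitochondrial chaperonin, 8 small heat shock protein genes and 45 DNAJ genes. Of these, 10 germ cell forms were set apart: *Hspa2*, *Hspa1l*, *Hspa4l*, *Hspb9*, *Dnajb3*, *Dnajb7*, *Dnajb8*, *Dnajb13*, *Dnajc5b* and *Dnajc5g*. The day 7 table lists 71 members, all except *Dnajc5b*, and the adult table lists all 72.

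RNA-seq was carried out to find which transcripts change when *Rnf20*, an E3 ubiquitin ligase for histone H2B, is deleted in Sertoli cells, which nurse the germ cells of the seminiferous epithelium. Sertoli cell samples came from mice at 7 days after birth, 2 labelled WT and 2 labelled RNF20 conditional knockout (KO). Whole testis samples came from adult mice of unstated age, 3 labelled WT and 3 labelled KO. The study's methods describe the controls as *Rnf20* Flox/Flox mice and the knockout as Amh-Rnf20-/- mice, which carry the same floxed alleles and a Cre recombinase driven by the *Amh* promoter, so the deletion is directed to Sertoli cells and not to germ cells. The day 7 cells were released with collagenase and trypsin, plated overnight and passaged several times before use, so their chaperone levels are those of adherent cultured cells. The methods do not describe the adult RNA-seq, and the label for growth gives adult tissue for every sample, the day 7 ones included. The methods describe more individuals per day 7 group than there are samples here, and whether samples hold pooled animals is not given. No label says which samples come from separate animals, so p-values measure only the spread between these samples.

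Heat shock proteins are molecular chaperones, which bind unfolded or newly made proteins and help them reach or keep their shape. HSP70 proteins bind short hydrophobic stretches in an ATP-driven cycle, DNAJ proteins bring them their clients and start the ATP hydrolysis, HSP110 proteins exchange the nucleotide, HSP90 proteins finish the folding of kinases and receptors, and small heat shock proteins hold unfolded chains without ATP. Many of these genes have a constitutive form in all cells and a further form used by meiotic and haploid germ cells, and heat shock factor 1 (HSF1) raises the inducible members through heat shock elements in their promoters.

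In adult testis, every germ cell form of these families was lower in the KO-labelled samples, with log2 fold changes between −11.50 and −3.96. Of all genes tested, 40.6% were called lower. In the same samples the constitutive cytosolic forms *Hspa8* and *Hsp90ab1*, the mitochondrial chaperonin genes *Hspd1* and *Hspe1*, the inducible genes *Hspa1a* and *Hspa1b* and the small heat shock protein gene *Hspb8* were higher, by log2 fold changes of 4.71 for *Hspb8* and between 1.44 and 2.57 for the rest. Not all inducible or widely used members went this way, and *Dnajb1* (−3.62), *Hsp90aa1* (−2.34), *Hsph1* (−2.21) and *Hspa4* (−1.28) fell. Markers of germ cells and of several somatic cell types differed between the same samples. In day 7 Sertoli cells no member passed the test, and the members farthest below the controls were *Hspb8* and *Hspb1*.

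Promoter sequences of 58 of the 72 members were matched in RefSeq (GRCm38.p6), in 75 windows that run from 250 bases before to 50 bases after a transcript start. A heat shock element is built from GAA units in alternating orientation, and it was searched as GAANNTTC or TTCNNGAA, which are the same on both strands. These 8 letters were found in 18 of the 75 member windows (24.0%) and in 15.06% of 32851 windows of all genes. An element of 3 alternating units in a row, of which the 8 letters are a part, was found in 6 member windows (8.0%), of *Dnajb6*, *Hspd1*, *Hspe1* and *Hsph1*, and in 0.603% of all windows. These 6 windows belong to 4 genes and can overlap, since a start of *Hspd1* lies at −216 bases from that of *Hspe1*. The same element can thus be counted more than once. The sequences below are examples of members with a match and of germ cell forms without one, and capitals mark each match of the 8 letters. *Hspa1a* (chr17:34972107-34972406, minus strand) and *Hspa1b* (chr17:34959189-34959488, minus strand) have 296 of 300 bases in common, with a match 104 bases before the start in both. *Hspe1* (chr1:55087898-55088197, plus strand) has overlapping matches 89, 84 and 79 bases before its start, and its window also covers a start of *Hspd1*, which is transcribed the other way. *Hsph1* (chr5:149636287-149636586, minus strand) has matches 33 bases before and 36 and 41 bases after the transcript start used for this window. That start, at 149636336, lies inside the gene span, which reaches 149636498. *Hspb8* (chr5:116422815-116423114, minus strand) has a match 2 bases after its start. *Hspa1l* (chr17:34972453-34972752, plus strand), which starts 547 bases from *Hspa1a* on the other strand, and *Dnajb8* (chr6:88222018-88222317, plus strand) hold no match in this window.
Hspa1a: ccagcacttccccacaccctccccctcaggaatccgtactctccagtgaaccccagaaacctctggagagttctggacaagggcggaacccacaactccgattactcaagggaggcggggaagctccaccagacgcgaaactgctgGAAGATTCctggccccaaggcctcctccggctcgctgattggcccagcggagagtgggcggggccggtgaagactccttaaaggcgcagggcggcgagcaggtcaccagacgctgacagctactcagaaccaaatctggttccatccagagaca
Hspa1b: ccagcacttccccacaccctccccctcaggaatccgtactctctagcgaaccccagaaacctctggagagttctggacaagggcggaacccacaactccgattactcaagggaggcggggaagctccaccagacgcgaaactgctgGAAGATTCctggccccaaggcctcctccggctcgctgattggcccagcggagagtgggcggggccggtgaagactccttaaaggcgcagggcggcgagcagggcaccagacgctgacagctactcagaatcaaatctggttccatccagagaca
Hspe1: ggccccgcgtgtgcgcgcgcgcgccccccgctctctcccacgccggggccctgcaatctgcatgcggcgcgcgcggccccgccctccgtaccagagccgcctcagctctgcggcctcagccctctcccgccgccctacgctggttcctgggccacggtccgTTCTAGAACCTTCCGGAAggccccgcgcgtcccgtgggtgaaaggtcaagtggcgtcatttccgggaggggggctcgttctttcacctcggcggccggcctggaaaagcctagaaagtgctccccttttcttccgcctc
Hsph1: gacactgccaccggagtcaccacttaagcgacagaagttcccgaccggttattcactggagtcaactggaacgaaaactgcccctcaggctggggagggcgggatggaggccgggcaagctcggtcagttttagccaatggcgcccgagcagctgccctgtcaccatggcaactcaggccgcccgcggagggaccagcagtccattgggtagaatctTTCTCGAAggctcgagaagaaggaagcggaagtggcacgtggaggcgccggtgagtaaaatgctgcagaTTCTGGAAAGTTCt
Hspb8: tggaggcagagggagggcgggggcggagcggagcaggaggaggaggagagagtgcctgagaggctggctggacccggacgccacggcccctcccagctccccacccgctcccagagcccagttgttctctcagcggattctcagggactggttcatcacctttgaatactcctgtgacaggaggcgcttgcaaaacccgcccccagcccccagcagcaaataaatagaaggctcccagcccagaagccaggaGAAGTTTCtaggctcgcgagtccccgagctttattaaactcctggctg
Hspa1l: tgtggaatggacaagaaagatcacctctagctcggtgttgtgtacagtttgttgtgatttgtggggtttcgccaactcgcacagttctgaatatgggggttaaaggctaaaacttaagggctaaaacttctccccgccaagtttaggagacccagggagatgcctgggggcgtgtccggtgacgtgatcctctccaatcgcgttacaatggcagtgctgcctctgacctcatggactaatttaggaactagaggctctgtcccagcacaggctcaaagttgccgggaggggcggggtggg
Dnajb8: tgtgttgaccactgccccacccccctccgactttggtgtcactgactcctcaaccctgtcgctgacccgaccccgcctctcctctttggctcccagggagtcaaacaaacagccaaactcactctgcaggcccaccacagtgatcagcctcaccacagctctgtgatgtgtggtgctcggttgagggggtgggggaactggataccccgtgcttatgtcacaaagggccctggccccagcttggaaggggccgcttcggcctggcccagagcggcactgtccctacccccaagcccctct

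Among the 10 germ cell forms, 9 have a window, and 1 of these, *Dnajc5g*, holds the 8 letters. Of the 15 members with the 8 letters that were tested in adult testis, 6 were higher and 7 were lower in the KO-labelled samples, shares close to the 40.9% and 40.6% of all genes called higher and lower. A match describes the sequence and does not show that a factor binds there.

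Total counts ranged from 17477268 to 17705347 over the day 7 libraries and from 15431912 to 16574144 over the adult ones. In adult testis *Rnf20* itself had FPKM values of 4.89, 3.32 and 4.09 in the WT samples and 9.16, 5.76 and 9.85 in the KO-labelled samples, with a log2 fold change of 0.12 (SE 0.27, edgeR adjusted p = 0.688), and it was −0.075 with median-ratio scaling and 0.97 with total counts (edgeR adjusted p = 0.0168), so the samples are called KO-labelled here. By Western blot, the paper reports less RNF20 protein in adult Amh-Rnf20-/- testes than in control testes. Whether those animals gave the samples used here is not stated. At day 7 the FPKM values of *Rnf20* were 16.6 and 16.01 in the WT samples and 10.2 and 12.6 in the KO samples, with a log2 fold change of −0.49 (SE 0.12, edgeR adjusted p = 0.222). Cell type markers also differed between the adult labels. The summed FPKM of 12 spermatid markers lay between 125350.0 and 193960.0 in the WT samples and between 15.6 and 141.3 in the KO-labelled samples, all 12 called lower with 8 of 12 spermatocyte markers, while 7 of 7 Leydig cell, 6 of 6 stromal, 8 of 8 macrophage, 5 of 6 endothelial and 9 of 20 Sertoli cell markers were called higher, the last of these a share (45%) near the 40.9% of all genes. KO 1 stood apart from KO 2 and KO 3 (chi-square per degree of freedom 88.1 and 118, against 21.4 between KO 2 and KO 3), and its 12 spermatocyte markers summed to 8.45 FPKM, against a highest sum of 302.6 in its group. The spermatogonium markers went both ways, with 3 of 13 tested called higher and 5 called lower. Their summed FPKM lay between 284.6 and 317.1 in the WT samples and was 62.5 in KO 1, 343.1 in KO 2 and 489.2 in KO 3. In whole tissue, fewer cells of a type and less RNA per cell cannot be told apart. At day 7 no marker list had a called gene, and the Sertoli cell markers, none of them at 0 in every sample, summed to between 1878 and 2080.2 FPKM in the WT samples and between 1004 and 1518 in the KO samples, while the 7 peritubular myoid markers summed to between 2118 and 2248 and between 3822 and 3901. The part of these differences in the results that follow was not tested.

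Fold changes are given as log2 of KO over WT after TMM scaling, a scaling that assumes most genes do not change, with adjusted p-values from edgeR's quasi-likelihood test and Benjamini-Hochberg adjustment over all genes tested, and a gene is said to rise or fall where the adjusted p is under 0.05. FPKM, the level per gene length and library total, is given for each sample beside them. In adult testis the choice of scaling matters: the median log2 fold change over 15919 genes was 0.011 with TMM, −0.19 with median-ratio scaling and 0.87 with total counts, which is the scale of FPKM. A gene can therefore have a higher FPKM in the KO-labelled samples and a fold change near 0.

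Of the 69 members tested in adult testis, 18 (26.1%) rose and 38 (55.1%) fell, where 40.9% of all genes tested rose and 40.6% fell. Without KO 1, 19 rose and 37 fell, where 86.4% of all genes were called, 52.4% of these calls higher. The split was 30 and 29 with total counts, where 54.1% of all genes rose and 30.0% fell, and 15 and 41 with median-ratio scaling, where 37.6% and 43.5% did. With the study's thresholds, more than 1 on the log2 scale in either direction with an adjusted p below 0.001, there were 8 higher and 27 lower members, against 23.0% and 23.7% of all genes. The median log2 fold change of the members was −0.59, and the difference from the median of all genes was −0.60 with TMM, −0.61 with median-ratio scaling and −0.60 with total counts. Without the germ cell forms, 18 of 59 members rose and 28 fell. Counts for parts of the group follow, and no test of a difference between families was made. Of the 22 heat shock protein genes that are not germ cell forms, 12 rose and 6 fell with TMM (15 and 4 with total counts), and of the 37 such DNAJ genes, 6 rose and 22 fell with TMM, whereas 15 rose and 15 fell with total counts. The 3 members that were not tested, *Hspb3*, *Dnajc6* and *Dnajc22*, had FPKM values up to 0.83 and did not pass the filter on low values.

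**Figure D1:**
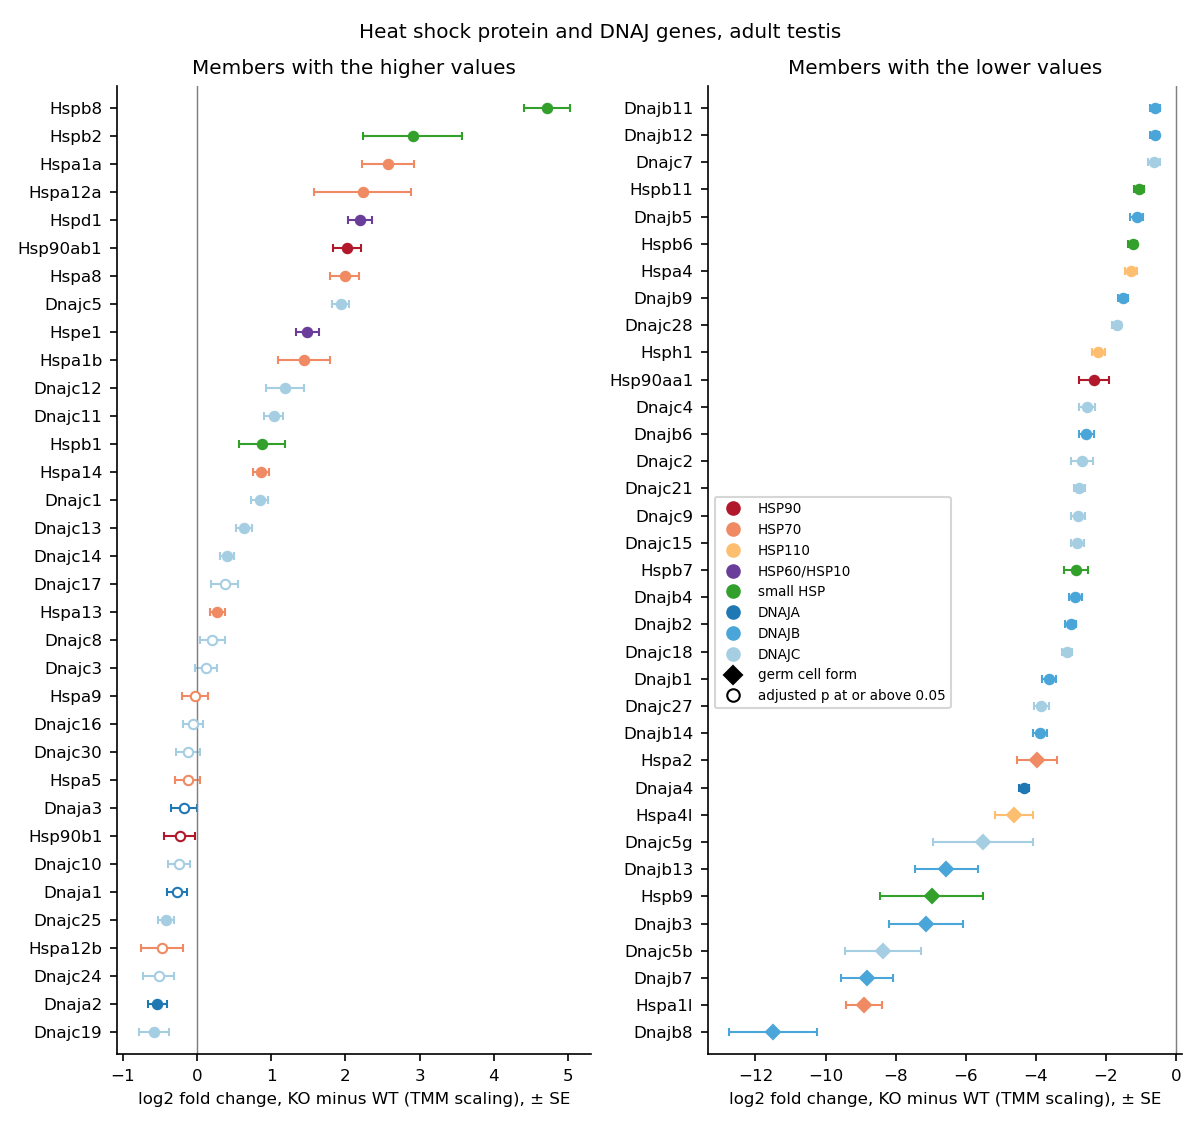
Log2 fold changes (KO minus WT, TMM scaling) of the 69 members tested in adult testis, with standard errors as bars, in order of size, with the higher values in the left panel and the lower in the right panel, whose axes differ in range. Colours give the family, diamonds mark germ cell forms and open symbols an adjusted p of 0.05 or more; the 10 diamonds lie between −3.96 and −11.50, and *Hspb8* leads the other end at 4.71.

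The germ cell forms all fell, where 40.6% of all genes did. No KO-labelled sample overlapped a WT sample. On TMM-scaled counts, all KO-labelled samples lay below the WT samples in 43.1% of all genes. *Dnajb8*, a DNAJ protein of spermatids, had FPKM values of 809, 1011 and 806 in the WT samples and 0, 1.35 and 0.26 in the KO-labelled samples. Its log2 fold change was −11.50 (SE 1.25, edgeR adjusted p = 0.000273), on counts of 0, 16 and 3 in the KO-labelled samples. KO 1 held no read and KO 2 held most of the few that remained, and without KO 2 the value was −13.44 and without KO 1 it was −10.80.

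*Hspa1l*, the HSP70 form of haploid germ cells, had FPKM values of 406, 436 and 398 in the WT samples and 0.97, 2.47 and 1.29 in the KO-labelled samples. Its log2 fold change was −8.90 (SE 0.50, edgeR adjusted p = 3.69e-05), a level 477.6 times higher in the WT samples. KO 2 was the highest of the KO-labelled samples and still far below every WT sample. *Hspa2*, the HSP70 form of meiotic cells that is needed for the synaptonemal complex to come apart, had 260.1, 272 and 324 in the WT samples and 10.9, 40.5 and 49.1 in the KO-labelled samples, a log2 fold change of −3.96 (SE 0.57, edgeR adjusted p = 0.000848). It kept the highest level of the 10 forms in KO 1.

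*Hspb9*, the testis small heat shock protein, was the most abundant member of all in the WT samples, with FPKM values of 4578, 3959 and 2870.3 in the WT samples and 1.29, 82.9 and 85.3 in the KO-labelled samples. Its log2 fold change was −6.97 (SE 1.47, edgeR adjusted p = 0.00479), and −6.26 without KO 1. The values show KO 1 far below KO 2 and KO 3, which were alike, and a similar spacing was found for several other forms. *Dnajb3* had 1300.5, 1439 and 1276 in the WT samples and 1.91, 24.97 and 26.6 in the KO-labelled samples, with a log2 fold change of −7.12 (SE 1.06, edgeR adjusted p = 0.00101) and −6.46 without KO 1. *Dnajb7* had 241, 237 and 194 in the WT samples and 0.14, 1.26 and 1.32 in the KO-labelled samples, with −8.81 and −8.19 without KO 1. *Dnajb13*, a DNAJ protein of sperm flagella and motile cilia, had 399, 446 and 411 in the WT samples and 1.30, 11.7 and 11.9 in the KO-labelled samples, with −6.55 and −5.91 without KO 1.

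The cysteine string proteins are DNAJ proteins that guard the machinery of vesicle release, and the germ cell genes *Dnajc5b* and *Dnajc5g* fell while the ubiquitous gene *Dnajc5* rose. *Dnajc5b* had FPKM values of 417, 455 and 389 in the WT samples and 0.09, 3.84 and 3.01 in the KO-labelled samples, with a log2 fold change of −8.37 (SE 1.09, edgeR adjusted p = 0.000563), −7.68 without KO 1 and −9.0 without KO 2. *Dnajc5g* had 152, 159 and 162 in the WT samples and 0, 10.03 and 9.26 in the KO-labelled samples, with −5.50 (SE 1.43, edgeR adjusted p = 0.0114) and −4.78 without KO 1. *Dnajc5*, chosen after its values were seen, had 5.22, 4.91 and 5.45 in the WT samples and 31.4, 37.6 and 39.3 in the KO-labelled samples, with 1.94 (SE 0.11, edgeR adjusted p = 3.83e-05). *Hspa4l*, the germ cell relative of the nucleotide exchange factor *Hspa4*, had 265, 262 and 289.5 in the WT samples and 5.08, 19.1 and 24.3 in the KO-labelled samples and a log2 fold change of −4.62 (SE 0.54, edgeR adjusted p = 0.000362). KO 1 was the lowest of the 3 KO-labelled samples for all 10 forms, and all 10 fell with each sample left out in turn.

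**Figure D2:**
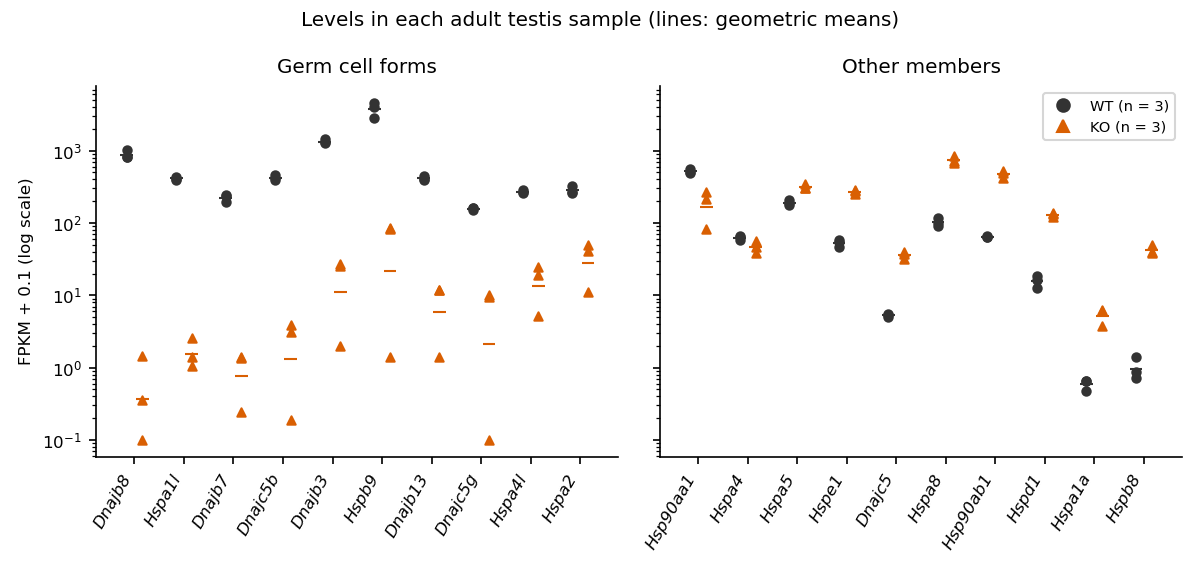
FPKM + 0.1 on a log axis in each adult testis sample, for the germ cell forms (left) and 10 other members (right), with WT samples as circles, KO-labelled samples as triangles (n = 3 each) and the geometric mean as a line. All germ cell forms lie lower in the KO-labelled samples with KO 1 at the bottom, whereas *Hspa8*, *Hsp90ab1*, *Hspd1* and *Hspb8* lie higher.

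Among the other HSP70 genes, 6 of 9 rose and none fell, where 40.9% and 40.6% of all genes did. *Hspa8*, the constitutive HSP70 of the cytosol, had FPKM values of 119, 91.2 and 98.7 in the WT samples and 676, 717 and 831 in the KO-labelled samples. Its log2 fold change was 1.99 (SE 0.20, edgeR adjusted p = 0.000184), a level 3.98 times higher, and the groups did not overlap. The stress-inducible genes *Hspa1a* and *Hspa1b* were at low levels in the WT samples. *Hspa1a* had 0.37, 0.56 and 0.55 in the WT samples and 6.12, 5.91 and 3.69 in the KO-labelled samples, with a log2 fold change of 2.57 (SE 0.35, edgeR adjusted p = 0.000701). *Hspa1b* had 2.55, 2.31 and 1.76 in the WT samples and 15.7, 8.30 and 8.26 in the KO-labelled samples, with 1.44 (SE 0.35, edgeR adjusted p = 0.00897). Both genes were higher in all 3 KO-labelled samples, and since they are near-identical copies, how their reads were divided between them is uncertain.

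*Hspa12a*, a distant HSP70 relative, had 1.93, 1.75 and 1.89 in the WT samples and 31.6, 9.11 and 6.52 in the KO-labelled samples, and its log2 fold change of 2.23 (SE 0.65, edgeR adjusted p = 0.0183) was 1.29 without KO 1, which held the highest level by far. Its adjusted p (edgeR) was between 0.05865 and 0.0613 with a WT sample left out. *Hspa14*, a ribosome-linked HSP70, had 11.1, 9.77 and 10.6 in the WT samples and 32.4, 36.2 and 35.5 in the KO-labelled samples, with 0.86 (SE 0.10, edgeR adjusted p = 0.00038). *Hspa13*, of the endoplasmic reticulum, had 15.7, 13.2 and 14.1 in the WT samples and 19.1, 20.6 and 20.2 in the KO-labelled samples, with a small rise of 0.28 (SE 0.099, edgeR adjusted p = 0.0394) that was 0.077 with median-ratio scaling. The remaining genes did not pass the test with TMM. *Hspa5* (BiP), the HSP70 of the endoplasmic reticulum, had 205, 177 and 191 in the WT samples and 304, 302 and 348 in the KO-labelled samples and a log2 fold change of −0.12 (SE 0.17, edgeR adjusted p = 0.522). *Hspa9* (mortalin), the mitochondrial HSP70, had 83.7, 82.2 and 96.2 in the WT samples and 169, 147 and 149 in the KO-labelled samples and −0.024 (SE 0.17, edgeR adjusted p = 0.904). *Hspa12b* had 1.75, 1.64 and 1.56 in the WT samples and 2.56, 2.21 and 1.57 in the KO-labelled samples and −0.47, which was −0.19 without KO 3. Each of these 3 was negative with TMM and positive with total counts, where *Hspa5* (0.73, edgeR adjusted p = 0.00639) and *Hspa9* (0.83, edgeR adjusted p = 0.00299) passed the test, whereas *Hspa5* was called lower by DESeq2 (−0.32, adjusted p = 0.00114).

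In the HSP90 family the paralogs went in opposite directions. *Hsp90ab1*, the constitutive cytosolic form, had FPKM values of 63.3, 64.2 and 65.9 in the WT samples and 488, 413 and 521 in the KO-labelled samples, with a log2 fold change of 2.02 (SE 0.19, edgeR adjusted p = 0.000149). *Hsp90aa1*, the inducible form that germ cells also use, had 488, 501 and 558 in the WT samples and 81.5, 214 and 266 in the KO-labelled samples, with −2.34 (SE 0.44, edgeR adjusted p = 0.00274). The groups did not overlap for either gene, and KO 1 was the lowest sample for *Hsp90aa1*. *Hsp90b1* (GRP94), of the endoplasmic reticulum, had 239, 187 and 221 in the WT samples and 258, 359 and 386 in the KO-labelled samples and a log2 fold change of −0.23 (SE 0.21, edgeR adjusted p = 0.345), which was 0.63 with total counts (edgeR adjusted p = 0.0379) and −0.43 with DESeq2 (adjusted p = 0.0225).

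The HSP110 genes fell with TMM. *Hsph1*, an inducible HSP110, had 12.4, 13.01 and 13.8 in the WT samples and 4.30, 4.21 and 6.91 in the KO-labelled samples, with a log2 fold change of −2.21 (SE 0.19, edgeR adjusted p = 0.000121). *Hspa4* had 64.2, 57.4 and 66.8 in the WT samples and 37.9, 46.5 and 57.1 in the KO-labelled samples, with −1.28 (SE 0.18, edgeR adjusted p = 0.000735). KO 3 was close to the lowest WT sample for *Hspa4* in FPKM, and the difference did not pass the test with total counts (−0.41, edgeR adjusted p = 0.0921).

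The mitochondrial chaperonin is a folding chamber of HSP60, from *Hspd1*, with a lid of HSP10, from *Hspe1*, and both genes rose. *Hspd1* had FPKM values of 18.2, 12.5 and 16.4 in the WT samples and 133, 121 and 136 in the KO-labelled samples, with a log2 fold change of 2.20 (SE 0.17, edgeR adjusted p = 7.65e-05), a level 4.58 times higher. *Hspe1* had 58.6, 55.2 and 45.8 in the WT samples and 286, 248 and 279.5 in the KO-labelled samples, with 1.49 (SE 0.15, edgeR adjusted p = 0.000211), a level 2.81 times higher. These genes lie head to head on chromosome 1 (*Hspd1* from 55077833 to 55088243, *Hspe1* from 55088148 to 55091317), so the spans share 96 bases, where reads could be counted for either gene unless strand was used, and the handling of strand is not given in the sources used here.

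The small heat shock proteins other than *Hspb9* had 3 of 6 tested genes higher and 3 lower, close to the 40.9% and 40.6% of all genes. *Hspb8*, which works with the cochaperone BAG3 in selective autophagy, had FPKM values of 0.77, 0.63 and 1.30 in the WT samples and 49.5, 38.03 and 40.05 in the KO-labelled samples. Its log2 fold change of 4.71 (SE 0.31, edgeR adjusted p = 5.10e-05) was the largest rise of any member, a level 26.2 times higher, and the groups were far apart. *Hspb2*, a muscle form, had 0.30, 0.82 and 0.30 in the WT samples and 12.4, 4.71 and 4.46 in the KO-labelled samples, with 2.91 (SE 0.67, edgeR adjusted p = 0.00688). Its value lay between 2.40 and 3.51 with a sample left out, on counts of 2, 5 and 2 in the WT samples. *Hspb1* (HSP27 in humans, HSP25 in mice), which binds actin and unfolded proteins, had 46.3, 35.5 and 29.4 in the WT samples and 71.7, 143 and 159 in the KO-labelled samples, with 0.87 (SE 0.31, edgeR adjusted p = 0.0365). The *Hspb1* groups overlapped on the TMM scale, and its adjusted p (edgeR) was 0.0721 with median-ratio scaling.

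*Hspb7*, a small heat shock protein of the heart and of smooth muscle, had 8.31, 10.4 and 8.98 in the WT samples and 3.33, 1.72 and 1.80 in the KO-labelled samples, with −2.86 (SE 0.34, edgeR adjusted p = 0.000401). *Hspb6*, which is found in smooth muscle, had 33.2, 37.1 and 33.8 in the WT samples and 29.02, 25.3 and 25.7 in the KO-labelled samples, with −1.24 (SE 0.14, edgeR adjusted p = 0.000317). *Hspb11*, named as a heat shock protein and known as a part of the intraflagellar transport complex, had 48, 55.5 and 46.7 in the WT samples and 38.04, 38.98 and 47.02 in the KO-labelled samples, with −1.05 (SE 0.15, edgeR adjusted p = 0.000804). Its FPKM values overlapped between the groups, and with total counts its fold change was −0.19 (edgeR adjusted p = 0.274). The 7 peritubular myoid markers had 5 genes called higher and 1 lower, with summed FPKM between 296.9 and 369.6 in the WT samples and between 218.6 and 457.1 in the KO-labelled samples.

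All 13 DNAJB genes fell with TMM, the 4 germ cell forms included, where 40.6% of all genes fell. Of the 13, 11 fell by more than 1 on the log2 scale. With total counts *Dnajb11* and *Dnajb12* turned positive, and *Dnajb5* did not pass the test (−0.27, edgeR adjusted p = 0.156). *Dnajb1*, the main cytosolic partner of HSP70 and a textbook inducible gene, had FPKM values of 148, 158 and 141 in the WT samples and 17.4, 23.2 and 25.4 in the KO-labelled samples, with a log2 fold change of −3.62 (SE 0.20, edgeR adjusted p = 3.65e-05). *Dnajb6*, a DNAJ protein that holds back aggregation, had 339.5, 358 and 364 in the WT samples and 71.2, 95.2 and 118 in the KO-labelled samples, with −2.55 (SE 0.22, edgeR adjusted p = 0.000112). Both genes lay far lower in every KO-labelled sample. *Dnajb14*, of the endoplasmic reticulum membrane, had 117, 154 and 151 in the WT samples and 5.75, 8.07 and 9.19 in the KO-labelled samples, with −3.89. *Dnajb11* and *Dnajb12*, with the smallest changes of the 13 (−0.59 and −0.61), had 0.27 and 0.25 with total counts.

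Among the 4 DNAJA genes, *Dnaja4* fell by far the most, with 99.5, 101 and 97.4 in the WT samples and 8.22, 9.03 and 9.21 in the KO-labelled samples and a log2 fold change of −4.34 (SE 0.15, edgeR adjusted p = 2.70e-05). *Dnaja1*, a general partner of cytosolic HSP70, had 60.2, 58.2 and 61.6 in the WT samples and 81.2, 95.2 and 95.98 in the KO-labelled samples and −0.26 (SE 0.14, edgeR adjusted p = 0.119), which was −0.085 without KO 1, −0.46 with median-ratio scaling (edgeR adjusted p = 0.021) and 0.60 with total counts (edgeR adjusted p = 0.00838). *Dnaja2* fell by TMM (−0.53) and was 0.33 with total counts. *Dnaja3*, the mitochondrial partner of *Hspa9*, had −0.17 and did not pass the test.

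Of the 24 DNAJC genes that were tested and are not germ cell forms, 6 rose and 11 fell with TMM, while 13 rose and 8 fell with total counts, against 40.9% and 40.6% of all genes with TMM and 54.1% and 30.0% with total counts. *Dnajc15*, a DNAJ protein of the mitochondrial inner membrane import motor, was the most abundant of them in the WT samples, with 882, 926 and 811 in the WT samples and 202, 258 and 219 in the KO-labelled samples and a log2 fold change of −2.81 (SE 0.18, edgeR adjusted p = 4.85e-05). *Dnajc27* (−3.84) and *Dnajc18* (−3.11) had the largest falls. The rises were *Dnajc5*, given above, *Dnajc12* (1.19), a partner of the aromatic amino acid hydroxylases, *Dnajc11* (1.04), which is linked to the mitochondrial cristae, *Dnajc1* (0.85), *Dnajc13* (0.63), an endosomal DNAJ protein, and *Dnajc14* (0.41, but 0.21 with median-ratio scaling and an edgeR adjusted p of 0.106). The DNAJ genes singled out by their size of change were chosen after their values were seen, apart from the germ cell forms, *Dnajb6* and *Dnajc15*.

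The direction of 17 members depended on the scaling, 6 of which passed the test with TMM. Under TMM, median-ratio and total-count scaling alike, 15 members rose and 29 fell. The same counts were not made for all genes. Whether the members differ from other genes in these counts was therefore not tested. Among the 17 were the endoplasmic reticulum genes *Hspa5*, *Hsp90b1*, *Dnajc3*, *Dnajc10*, *Dnajb11* and *Dnajb12*. All of them except *Dnajc3*, 16 in number, had a negative sign under both composition scalings and a positive one under total counts.

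**Figure D3:**
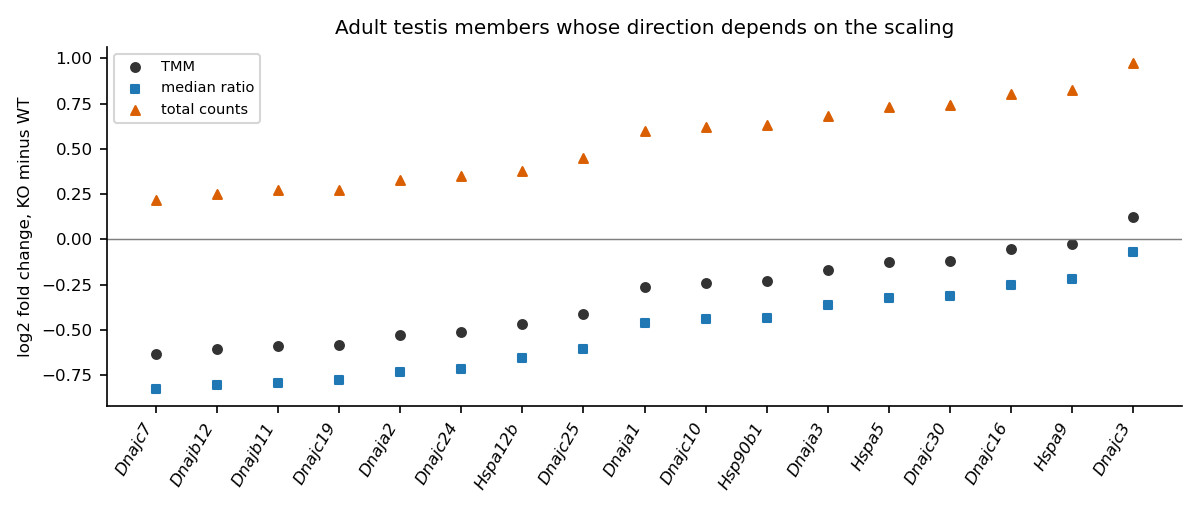
Log2 fold changes (KO minus WT) in adult testis of the 17 members whose direction depends on the scaling, with TMM as circles, median-ratio scaling as squares and total counts as triangles. Total counts lie above 0 for every gene shown, from 0.22 for *Dnajc7* to 0.97 for *Dnajc3*, and median-ratio scaling lies below 0 for every one.

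The make-up of the chaperone transcripts within a sample does not depend on scaling between libraries. In adult WT testis the 10 germ cell forms made up 66.6%, 66.3% and 61.9% of the summed FPKM of all members, and in the KO-labelled samples 0.528%, 4.34% and 4.19%. The means were 64.9% ± 2.60 and 3.02% ± 2.16 (SD, n = 3 each), and the groups did not overlap (p = 0.1 in an exact permutation test, two-sided, which cannot go lower with 3 samples in each group and so cannot pass 0.05). *Hspb9* alone took 29.9% ± 4.78 in the WT samples and 1.18% ± 0.994 in the KO-labelled samples. The constitutive forms took larger shares, with *Hspa8* at 0.817% ± 0.105 against 16.2% ± 0.416 and *Hsp90ab1* at 0.514% ± 0.0522 against 10.4% ± 1.43. By family, with the germ cell forms included, small heat shock proteins went from 31.0% to 6.5% and DNAJB genes from 30.6% to 6.85%. HSP90 genes went from 6.35% to 21.6%, HSP70 genes from 8.85% to 29.3% and the chaperonin from 0.546% to 8.83%. Each of these had the same smallest p of 0.1 in the exact permutation test.

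The summed FPKM of all members was 13265, 13084 and 11495 in the WT samples and 4105, 4566 and 5072 in the KO-labelled samples. Without the germ cell forms it was 4438, 4407 and 4376 against 4083, 4368 and 4859, so the groups overlapped. On the FPKM scale, the difference in the sum was thus found in the germ cell forms. The sum of the others held differences in both directions. DNAJB genes summed to 938.5 to 1018.5 in WT and 246.4 to 320.9 in KO-labelled samples, and DNAJC genes to 1616.8 to 1752.5 and 909.1 to 1000.2. HSP70 genes summed to 380.1 to 440.4 and 1248.3 to 1404.2, and chaperonin genes to 62.19 to 76.8 and 369.3 to 419.2. Small heat shock protein genes other than *Hspb9* summed to 120.7 to 140.0 in WT and 204.1 to 277.9 in KO-labelled samples, so the fall in their family share lay in *Hspb9*.

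**Figure D4:**
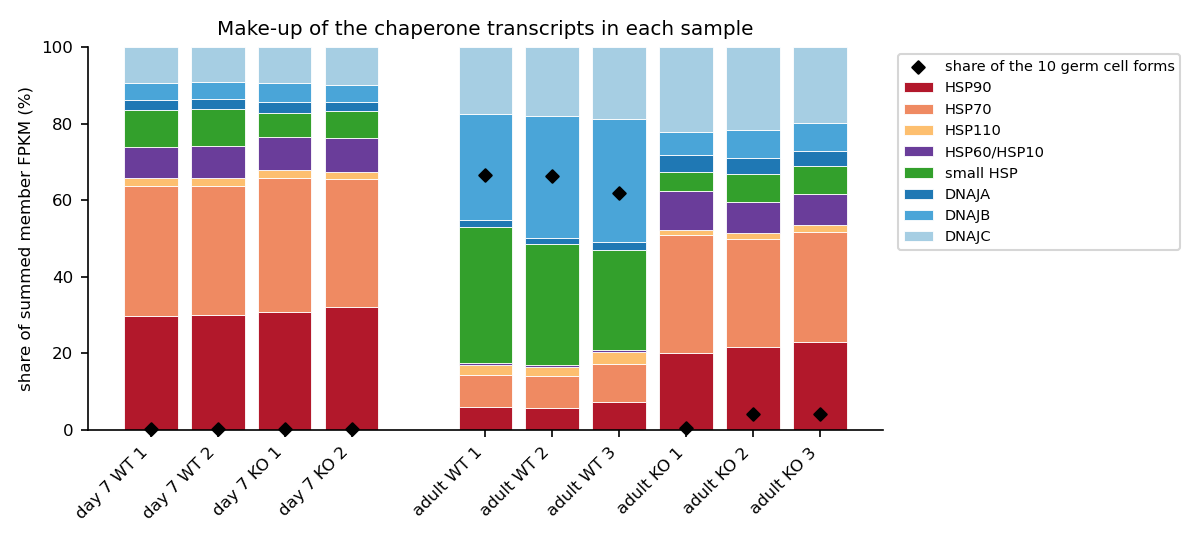
Share of each family in the summed FPKM of all members, in percent, in each sample of both tables, with diamonds for the share of the 10 germ cell forms. Adult WT samples are made up mostly of DNAJB and small heat shock protein transcripts, with germ cell forms at 61.9% to 66.6%, while HSP70 genes are the largest family in the adult KO-labelled samples and in the day 7 samples.

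Ratios between relatives within a sample, as log2 of FPKM + 0.1, were lower in the KO-labelled samples in all 6 pairs compared, of which 5 have a germ cell form over a widely used gene and 1 has the inducible *Hsp90aa1* over the constitutive *Hsp90ab1*. For *Hspa2* over *Hspa8* the log2 ratio was 1.13, 1.58 and 1.71 in the WT samples and −5.94, −4.15 and −4.08 in the KO-labelled samples, a difference of −6.20 in the means. The order of these genes was therefore turned, with *Hspa2* above *Hspa8* in every WT sample and below it in every KO-labelled sample. For *Hspa1l* over *Hspa8* the difference was −10.90, for *Dnajc5b* over *Dnajc5* −11.08, for *Hspa4l* over *Hspa4* −3.91, for *Hsp90aa1* over *Hsp90ab1* −4.50 (SD 0.073 and 0.94) and for *Dnajb13* over *Dnajb1* −3.39 (SD 0.054 and 1.5). Without KO 1 the difference was −5.58 for *Hspa2* over *Hspa8*, −9.77 for *Dnajc5b* over *Dnajc5* and −2.53 for *Dnajb13* over *Dnajb1*, and without KO 2 it was −11.83 for *Dnajc5b* over *Dnajc5*. With a pseudocount of 1 it was −9.83 for *Dnajc5b* over *Dnajc5* and −10.21 for *Hspa1l* over *Hspa8*. In each pair the numerator was the higher gene in every WT sample and the lower in every KO-labelled sample, and each exact permutation test gave p = 0.1, its smallest, for 3 samples against 3.

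Other genes of the folding machinery were counted from lists. The heat shock factors and their partners fell in adult testis with TMM, 6 of 6 tested, and 5 of 6 with total counts, where *Hsf1* turned. *Hsf1* itself had FPKM values of 16.5, 16.5 and 14.8 in the WT samples and 19.6, 18 and 19.9 in the KO-labelled samples, with a log2 fold change of −0.61 (SE 0.12, edgeR adjusted p = 0.00353), and 0.25 with total counts. *Hsf2*, a heat shock factor of germ cells and embryos, had 13.5, 14.6 and 17.1 in the WT samples and 6.86, 7.38 and 8.54 in the KO-labelled samples, with −2.05 (SE 0.14, edgeR adjusted p = 6.01e-05). The largest falls of the list were *Hsf5* (−4.59, −3.88 without KO 1) and *Hsf2bp* (−4.25, −3.58 without KO 1), which both act in meiosis. Of 9 members listed as raised by heat, which include *Hspa8* although it is mainly constitutive, 6 rose (*Hspa1a*, *Hspa1b*, *Hspb1*, *Hspd1*, *Hspe1* and *Hspa8*) and 3 fell (*Hsph1*, *Dnajb1* and *Hsp90aa1*), where 40.9% and 40.6% of all genes did. In the same samples 13 of 14 immediate early genes, which respond to handling of tissue among other stimuli, were called higher, with summed FPKM between 44.3 and 50.7 in the WT samples and between 466.6 and 1354 in the KO-labelled samples, and the part of handling in the inducible members was not tested.

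Of 34 cochaperones of HSP70 and HSP90, 8 rose and 17 fell with TMM (23.5% and 50%, against 40.9% and 40.6% of all genes), and 14 and 11 with total counts, where 54.1% and 30.0% of all genes did. *Fkbp5*, a glucocorticoid-responsive HSP90 cochaperone, had a log2 fold change of 2.95 (SE 0.28, edgeR adjusted p = 0.000163), and *Chordc1* of 0.89. *Bag5*, a nucleotide exchange factor, had −4.96 (SE 0.23, edgeR adjusted p = 2.79e-05), and *Unc45b*, a myosin chaperone, −3.31. In the cytosolic CCT chaperonin and prefoldin list, which folds actin and tubulin, 13 of 16 fell and 1 rose with TMM, *Vbp1* (2.12), against 10 and 3 with total counts. The testis paralogs *Cct8l1* (−8.61) and *Cct6b* (−5.60, −4.95 without KO 1) had the largest falls. The mitochondrial chaperonin genes rose, as *Vbp1* did, and the difference between this list and those genes was not tested.

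Of 25 other genes of endoplasmic reticulum folding and the unfolded protein response, 11 rose and 11 fell with TMM and 13 and 6 with total counts, both close to the shares of all genes under the same scaling (40.9% and 40.6%, 54.1% and 30.0%). The largest rises were of the stress sensor *Eif2ak3* (3.70) and the transcription factor *Xbp1* (2.65), and the largest falls were of the testis forms *Pdilt* (−6.98, −6.27 without KO 1) and *Calr3* (−5.54). Among the 12 members that act in the endoplasmic reticulum, 2 rose and 5 fell with TMM, against 8 and 2 with total counts. Of 10 other mitochondrial proteostasis genes, 4 rose with TMM (5 with total counts), with the proteases *Lonp1* (2.90) and *Clpp* (1.69) first, and 5 fell (3 with total counts), with *Clpb* (−4.22) and *Pam16* (−3.05) first. The 9 mitochondrial members had 3 genes higher and 3 lower with TMM, against 6 and 2 with total counts. With so few genes in each list, these splits are given as counts beside the all-gene shares above.

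In day 7 Sertoli cells 63 members were tested and none passed the test with edgeR, nor did any of the 12880 genes tested (0% higher and 0% lower). At an unadjusted p under 0.05, 8 members were higher and 4 lower, against 8.52% and 6.99% of all genes tested (12.7% and 6.35% of the members). On TMM-scaled counts both KO samples lay above both WT samples in 18 members and below them in 15, against 24.8% and 26.1% of all genes. DESeq2, an alternative, called 4 members, *Hspb1* and *Hspb8* lower and *Hspb7* and *Hspa12a* higher, of 581 genes in all. The median log2 fold change of the members was 0.020, against −0.004 for all genes.

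The most abundant members at day 7 were the constitutive forms. *Hspa8* had FPKM values of 1492 and 1504 in the WT samples and 1302 and 1420.3 in the KO samples, with a log2 fold change of −0.099 (SE 0.079, edgeR adjusted p = 0.598). *Hsp90ab1* had 1098 and 1128 in the WT samples and 1032 and 1199 in the KO samples, with 0.043 (SE 0.097, edgeR adjusted p = 0.871). No other member reached these levels. *Hsp90b1* had 518 and 514 in WT and 527 and 583 in KO samples, *Hspa5* 516 and 512 in WT and 563 and 523 in KO samples and *Hsp90aa1* 425 and 437 in WT and 365 and 404 in KO samples. *Hspe1* had 349 and 366 in WT and 322 and 386 in KO samples, *Hspa9* 236 and 233 in WT and 232 and 228 in KO samples and *Hspd1* 223 and 219 in WT and 224 and 224 in KO samples. Their log2 fold changes lay between −0.12 for *Hsp90aa1* and 0.15 for *Hsp90b1*. The DNAJ genes with the highest mean level over all 4 samples were *Dnajc8* (103 and 102 in WT and 112 and 119 in KO samples), a splicing-linked DNAJ protein, *Dnajb11* (82.8 and 84.8 in WT and 80.8 and 91.8 in KO samples), *Dnajb6* (75.4 and 71.5 in WT and 88.1 and 76.1 in KO samples), *Dnaja1* (74.8 and 70.7 in WT and 71.5 and 77.2 in KO samples) and *Dnaja2* (69.5 and 67.8 in WT and 79.9 and 61.2 in KO samples).

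The members with the smallest p-values among those lower in both KO samples were small heat shock proteins. *Hspb8* had FPKM values of 158 and 164 in the WT samples and 70.1 and 97.4 in the KO samples, with a log2 fold change of −0.91 (SE 0.17, edgeR adjusted p = 0.163) and an unadjusted p of 0.00405. *Hspb1* had 404 and 423 in the WT samples and 195 and 264 in the KO samples, with −0.81 (SE 0.15, edgeR adjusted p = 0.166) and an unadjusted p of 0.00442. KO 1 lay lower than KO 2 for both genes, and KO 1 was also the sample with the lowest sum of Sertoli cell markers, 1004 FPKM. The next were *Hsph1* (31.2 and 30.1 in WT and 25.8 and 24.4 in KO samples, −0.26), *Hspa2* (9.11 and 10.1 in WT and 6.65 and 7.78 in KO samples, −0.38) and *Dnajc24* (11.3 and 11.8 in WT and 8.89 and 8.93 in KO samples, −0.34). The share of small heat shock proteins in the summed member FPKM was 9.51% and 9.80% in the WT samples and 6.10% and 6.98% in the KO samples (exact permutation test, p = 0.333, the smallest for 2 samples against 2).

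Among those higher in both KO samples, *Hspa12a* came first, with FPKM values of 5.30 and 6.01 in the WT samples and 8.22 and 7.91 in the KO samples and a log2 fold change of 0.54 (SE 0.10, edgeR adjusted p = 0.167). *Hspa1a* had 4.05 and 4.67 in WT and 7.81 and 6.26 in KO samples and 0.73, and *Hspb7* had 14.6 and 16.4 in WT and 31.8 and 21.6 in KO samples and 0.82. These were low to moderate levels, and KO 1 was the farther sample for each. Without KO 1 the value of *Hspb7* was 0.51 and that of *Hspa12b*, given next, 0.48. *Dnajc13* had 15.3 and 16.04 in WT and 20.4 and 19.5 in KO samples and 0.37, and *Hspa12b* had 2.46 and 2.43 in WT and 5.02 and 3.28 in KO samples and 0.81. The near-identical *Hspa1b* had 13.8 and 14.6 in WT and 23.8 and 14.2 in KO samples, with KO 2 among the WT values and a log2 fold change of 0.47, which was 0.039 without KO 1. The smooth muscle member *Hspb6* had 35.1 and 36.8 in WT and 40.4 and 42.5 in KO samples and 0.24, and *Hspb2* 15.5 and 11.7 in WT and 18.8 and 19.1 in KO samples and 0.51. All 7 myoid markers and all 6 stromal markers lay higher in both KO samples, and their part in these values was not tested.

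Of the remaining heat shock protein genes, *Hspa4* (0.019), *Hspa13* (0.02), *Hspa14* (−0.046) and *Hspb11* (0.11) had log2 fold changes close to 0. With total counts the sign turned for *Hspa4* (−0.020) and *Hspa13* (−0.019), and also for *Hspa9* (−0.025) and *Hspe1* (−0.015). *Hspa4* had FPKM values of 95.5 and 93.4 in WT and 91.4 and 94.9 in KO samples, *Hspa13* of 21.3 and 20.97 in WT and 22.1 and 19.6 in KO samples, *Hspa14* of 41.4 and 42.4 in WT and 34.4 and 44.6 in KO samples and *Hspb11* of 26.8 and 27.1 in WT and 25.9 and 31.2 in KO samples. Leaving out a KO sample changed the calls: without KO 1 there were 8 members higher and 5 lower, and without KO 2 there were 11 higher and 12 lower, where 21.4% and 39.9% of all genes were called in either direction, in fits where the remaining KO sample is assumed to vary like the WT samples, which differed little from each other (chi-square per degree of freedom 2.65, against 34.3 between the KO samples).

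**Figure D5:**
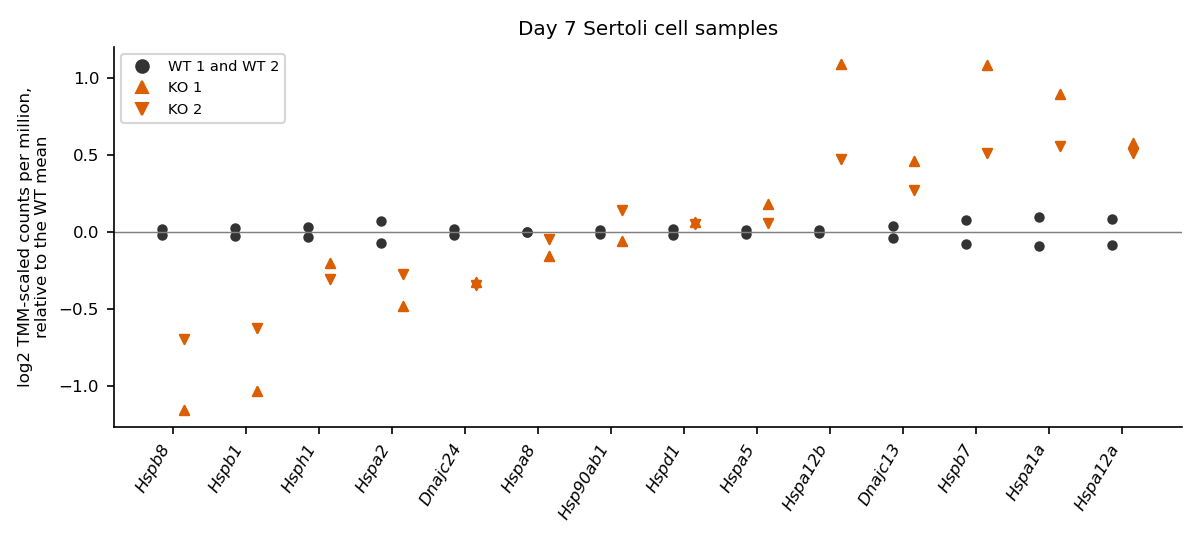
Log2 of TMM-scaled, depth-scaled counts relative to the mean of the WT samples, for day 7 members with the smallest p-values in each direction and 4 abundant members, with WT samples as circles, KO 1 as upward and KO 2 as downward triangles. *Hspb8* and *Hspb1* lie lowest and *Hspb7*, *Hspa1a* and *Hspa12b* highest, and *Hspa8*, *Hsp90ab1*, *Hspd1* and *Hspa5* stay within 0.2 of the WT mean.

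The germ cell forms were at low levels in day 7 Sertoli cells. *Hspa2* and *Hspa4l* had the highest levels, *Hspa4l* with 8.68 and 8.53 in WT and 6.36 and 6.55 in KO samples and a log2 fold change of −0.23. *Dnajb3* had 1.99 and 3.09 in WT and 2.91 and 1.84 in KO samples and *Hspa1l* 0.61 and 0.88 in WT and 0.43 and 0.59 in KO samples, and *Hspb9*, *Dnajb7*, *Dnajb8*, *Dnajb13* and *Dnajc5g* had FPKM values up to 0.61 and were not tested, as were *Hspb3*, *Dnajc6* and *Dnajc22*. The forms together made up 0.308% and 0.336% of the summed member FPKM in the WT samples and 0.277% and 0.256% in the KO samples. *Hspa2* stood below *Hspa8* in every sample, with log2 ratios of −7.34 and −7.20 in the WT samples and −7.59 and −7.49 in the KO samples. The ratios of *Hspa2* to *Hspa8* (−0.27), *Hspa4l* to *Hspa4* (−0.39) and *Hsp90aa1* to *Hsp90ab1* (−0.17) were lower in both KO samples (exact permutation test, p = 0.333 each, the smallest possible). The 14 spermatogonium markers summed to between 253.7 and 259.7 FPKM in the WT samples and between 165.4 and 183.9 in the KO samples.

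The 14 immediate early genes were at high levels in these cultured cells, with summed FPKM between 1275 and 1308 in the WT samples and between 1155 and 1583 in the KO samples. The lists of the folding machinery held no called gene at day 7. Both KO samples lay above the WT samples in 6 of 14 CCT and prefoldin genes and below them in 1, and in 9 of 23 and 1 of 23 endoplasmic reticulum genes, against the same 24.8% and 26.1% of all genes. *Hsf1* had 25.2 and 27.8 in WT and 30.6 and 29.4 in KO samples, with 0.20, and *Hsf2* had 10.7 and 10.6 in WT and 8.18 and 7.42 in KO samples, with −0.40, and neither passed the test.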

How the data were processed

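Oligo(dT)-enriched RNA was sequenced on BGISEQ. The authors used HISAT for GRCm38.p6 and Bowtie2 for the reference genes, and quantified with RSEM; versions and read filters are not given in the sources used here. The deposited estimated counts are not normalized. The deposited FPKM are scaled by gene length and library total. The deposited TPM are scaled to a fixed sum per sample and served as an alternative for shares. Replicates were not pooled. The adult table also has 20 columns without any value.

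Rounded estimated counts were tested with edgeR 4.0.16 (quasi-likelihood, TMM, Benjamini-Hochberg over all genes tested), each table alone, for genes with FPKM of at least 0.5 in 2 (day 7) or 3 (adult) samples. Between 10.7% and 13.2% of genes had a count that was not whole. Standard errors were derived from each fold change and its F statistic. Shares and log2(FPKM + 0.1) ratios had exact two-sided permutation tests. The scripts were tested on simulated data. With 87 and 113 of 15919 adult genes changed by 1 and 2 on the log2 scale, 5.75% and 51.3% of these were called, with 1 false call. At day 7, 59.6% of 89 and 88.3% of 111 changed genes of 12880 were called, with 10 false calls. The adult simulation changed far fewer genes than the 81.5% called in the measured samples. Alternatives were DESeq2 1.42.0, limma 3.58.1 on log2(FPKM + 0.1) and log2(FPKM + 1), other scalings and filters, the replicate number as a block, and each sample left out. Counts limit precision for genes near 0 reads; otherwise the spread between samples does.

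Groups came from the labels' titles. The members, which are defined by symbol, and the gene lists and tests were chosen with earlier results of these data known. The text names every member of the HSP families and germ cell forms with an FPKM of at least 1, the largest changes that passed the test without overlap (at day 7, the smallest p-values), the 5 most abundant DNAJ genes, *Hsf1*, *Hsf2* and *Rnf20*, and the largest changes of each list; others are said to be chosen after their values were seen. R 4.3.3, Python 3.11.15, pandas 2.3.3, numpy 2.4.6, scipy 1.17.1 and matplotlib 3.10.9 were used.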

Additional observations from a re-analysis of the deposited data

Results flagged for a closer look

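In 10 members the day 7 and the adult samples lay on opposite sides, every KO sample above the WT samples in the one table and below them in the other on TMM-scaled counts. They were 15.9% of the 63 members tested in both tables, against 18.3% of all 12378 genes tested in both, so this is no more frequent among the members. This difference between the tables was not tested, since they hold different material (cultured Sertoli cells and whole testis) and were scaled separately. No gene-wise test for a sample far from the others was made in groups of 2 and 3 samples.

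Higher at day 7 and lower in adult testis were *Dnajb1* (log2 fold change 0.063 at day 7 and −3.62 in adult testis), *Dnajb6* (0.23 and −2.55), *Dnajc27* (0.063 and −3.84), *Hspa5* (0.12 and −0.12), *Hspb6* (0.24 and −1.24) and *Hspb7* (0.82 and −2.86). Lower at day 7 and higher in adult testis were *Hspb8* (−0.91 and 4.71), *Hspa8* (−0.099 and 1.99), *Dnajc12* (−0.50 and 1.19) and *Dnajc14* (−0.033 and 0.41). None of the day 7 values passed the test with edgeR, and the adult value of *Hspa5* did not either and turned positive with total counts.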

How the results depend on the processing

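Of 63 genes followed under every alternative in adult testis, 56 kept their direction under every alternative and 51 kept direction and call. The 10 germ cell forms fell under every alternative at an adjusted p under 0.05, and 7 of them passed the stricter thresholds. With the replicate block, which used replicate numbers that do not pair the samples (correlations of deviations between −0.036 and 0.036), 16 adult members rose and 38 fell, the median was −0.60, no day 7 member was called, and the calls of *Hspa13* and *Hspb1* were lost. With that block 76.7% of all adult genes were called, 49.6% of these calls higher. Adult members that rose numbered 30 with total counts and with limma on log2(FPKM + 0.1) and on log2(FPKM + 1), and 8 with the stricter thresholds, in place of 18. With limma at pseudocounts of 0.1 and 1, 84.2% and 84.9% of all genes were called, 63.5% and 63.2% of these calls higher. The adult median of the members was −0.79 with median-ratio scaling and DESeq2, 0.27 with total counts, 0.25 and 0.23 with limma at pseudocounts of 0.1 and 1, and between −0.62 and −0.49 with a sample left out. With total counts and with limma at pseudocounts of 0.1 and 1, in that order, the sign turned for *Hsp90b1* (0.63, 0.62 and 0.62), *Hspa5* (0.73, 0.73 and 0.73), *Hspa9* (0.83, 0.83 and 0.82), *Hspa12b* (0.38, 0.31 and 0.22), *Dnaja1* (0.60, 0.59 and 0.59) and *Hsf1* (0.25, 0.27 and 0.25), by construction of the scaling. Over all 69 adult members tested, the sign of 17 depended on the scaling, 6 of them called with TMM and negative there (*Dnaja2*, *Dnajb11*, *Dnajb12*, *Dnajc7*, *Dnajc19* and *Dnajc25*). How many of all genes changed sign with the scaling was not counted, in adult testis or at day 7. *Rnf20* was −0.075 with median-ratio scaling and with DESeq2, and *Hspa9* 0.013 without a filter. Leaving out samples gave a range of −0.30 to 0.032 for *Hsp90b1*, −0.14 to 0.006 for *Hspa5* and −0.069 to 0.12 for *Hspa9*. At day 7 DESeq2 called 2 members higher and 2 lower (581 genes in all, against 0 with edgeR), a left-out sample gave 0 to 11 higher and 0 to 12 lower (up to 39.9% of all genes called), and the median was −0.019 with total counts, −0.020 and −0.019 with limma, and −0.002 to 0.039 with a sample left out. Without a sample the day 7 difference (KO minus WT) in the log2 ratio of *Dnajb13* to *Dnajb1* ranged from −0.27 to 1.37, and the difference in share (KO minus WT, percentage points) from −0.5885 to 1.25 for HSP70, −0.09192 to 0.0366 for HSP110 and −0.06377 to 0.406 for DNAJA; the cause was not tested. The 16 day 7 genes that were followed under every alternative kept their direction, while 8 of the 63 day 7 members changed sign with the scaling. Counts of 0 to 16 limit the value of *Dnajb8*.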
